A study of Drosophila melanogaster with 41 samples.

Results

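The 5 genes described here, Ank2, Ank, futsch, shot and Khc-73, encode proteins that organise the cytoskeleton of the fly axon, and 3 of them carry giant exons. They were taken by their FlyBase symbols from 17027 genes or merged genes, and they hold 135 of the 84619 exon bins (a bin is the part of an exon that has the same set of transcripts along its length). The study asked what the RNA-binding protein ELAV and the nuclear isoform of its relative FNE (nFNE) do for neuronal 3′ UTRs and exons, and sequenced mRNA from 41 pools of Drosophila males in 11 groups of 4 embryo pools or 3 head pools each.

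Whole embryos were collected 7–8 h and 14–16 h after egg laying (AEL), and heads 72 h into adult life. At 7–8 h the groups were Δelav,fnenFNE, which lacks elav; elavmin,fnenFNE, whose frame-shifted elav gives little and truncated protein; elavnFNE, in which the nFNE coding sequence sits in the elav locus, endogenous fne lacks its mini-exon and no ELAV protein is made; and the fnenFNE control. The fnenFNE allele, which forces nuclear FNE, was thus shared by the control and by the first pair of mutants, but not by elavnFNE. At 14–16 h the groups were Δelav, elavmin, Δelav,fnenFNE and wild type, and in heads elavmin, Δelav,fnenFNE and wild type. Mutants came from stocks kept over marked balancer chromosomes, and each library pooled several individuals, whole embryos or whole heads. Δelav,fnenFNE adults have strongly reduced eyes. Within a stage, the comparisons share their control libraries.

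Ankyrins tie membrane proteins to the spectrin skeleton, and the giant isoforms of Drosophila Ank2 are known for stabilising axons and synapses together with microtubules. Futsch, the fly MAP1B, binds microtubules in axons and at the neuromuscular junction. Short stop (shot) is a spectraplakin that links actin to microtubules, and Khc-73 is a kinesin motor of the kinesin-3 family. ELAV binds nascent RNA in neurons and favours distal 3′ UTRs and neuronal exons.

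Labels and libraries were checked first. The bin with most of the elav coding sequence held 20.1% ± 0.96 of elav counts in Δelav,fnenFNE and 12.3% ± 0.544 in elavnFNE, against 42.9% ± 1.72 in the control at 7–8 h (SD, n = 4 each), with the same separation at the later stages. That share did not fall in elavmin, with 42.9% ± 1.73 in elavmin,fnenFNE at 7–8 h. At 14–16 h it was 38.25% ± 2.23 in elavmin and 35.17% ± 1.46 in wild type. It thus checks the deletion and the replacement of elav, and not the elavmin label. No check of the fne alleles is given here. Libraries held between 17668742 and 51377771 counts on bins. A shift of coverage towards the 3′ end stood out in head replicate 2 of Δelav,fnenFNE (0.357 on the log2 scale) and in replicates 3 and 4 of the 14–16 h Δelav,fnenFNE embryos (up to 0.193), where no library of any other group went beyond 0.045. Summed over 9 neuron markers, mutants had 2367 to 2548 CPM (counts scaled to library size) on average at 14–16 h, against 2845 CPM in wild type. The 4 photoreceptor markers summed to between 340 and 384 CPM in Δelav,fnenFNE heads and between 22840 and 24430 CPM in elavmin heads, against between 45230 and 45500 CPM in wild-type heads. In these bulk samples, fewer cells of a type and less RNA per cell cannot be told apart.

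Levels are given per kilobase of summed bin length (CPM per kb). That length counts every annotated bin, also those in few transcripts. It includes a bin of 27690 of the 47221 nt of Ank2, in 2 of 21 transcripts, and 1 of 10035 nt of shot, in 1 of 22. The order between genes thus depends on the annotation. By this measure Ank was first at 7–8 h, with 63.9 ± 1.91 in the control, followed by shot (18.7 ± 1.68), Khc-73 (17.5 ± 1.1), Ank2 (3.70 ± 0.60) and futsch (0.415 ± 0.0569; SD, n = 4). Shot and Khc-73 did not separate beyond their spread. In wild-type embryos at 14–16 h the order was shot (93.9 ± 5.63), Ank (76.1 ± 2.15), Khc-73 (40.6 ± 0.83), Ank2 (17.8 ± 0.754) and futsch (5.33 ± 0.474). Wild-type heads had Ank at 80.4 ± 4.11, futsch at 60.2 ± 7.69, shot at 51.1 ± 6.27, Ank2 at 43.1 ± 8.84 and Khc-73 at 39.2 ± 2.79 CPM per kb (SD, n = 3). There, futsch and shot overlapped, as did shot with Ank2 and Ank2 with Khc-73. Futsch was the gene with the widest range over the stages and Ank the one with the narrowest.

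**Figure D1:**
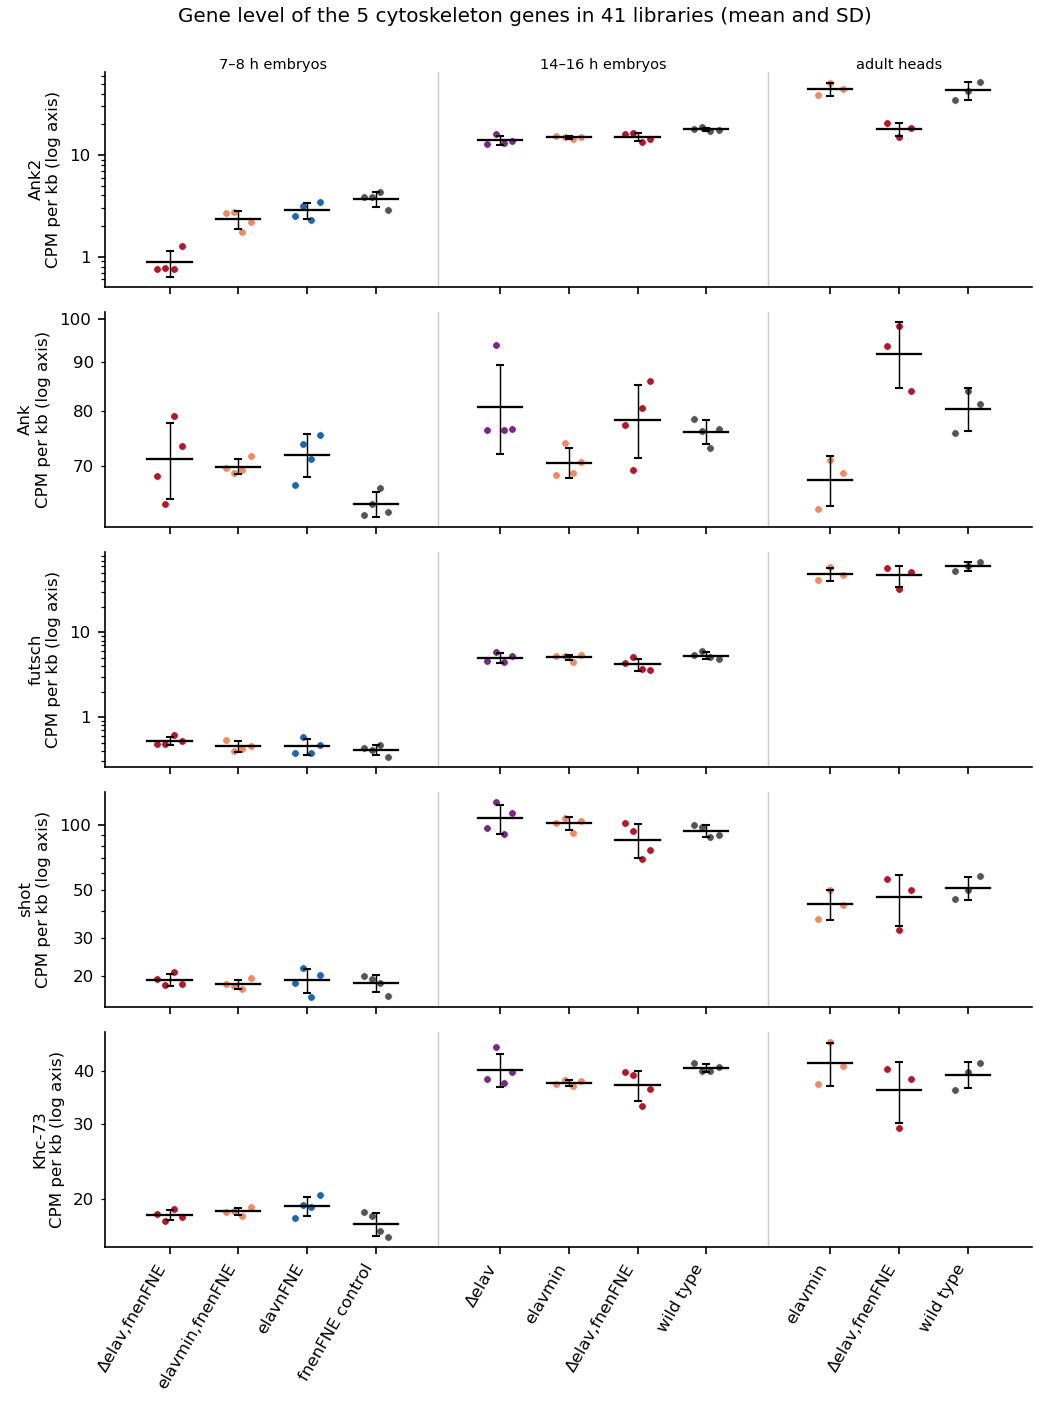
Gene level in CPM per kb (log axis) of Ank2, Ank, futsch, shot and Khc-73 in every library, by group and stage, with the mean and SD as bars. Ank2 in Δelav,fnenFNE lies below every other group at 7–8 h, with a mean of 0.888 against 3.70 CPM per kb in the control, and below the other head groups, with 17.9 against 43.1 CPM per kb in wild type.

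Between stages, the edgeR quasi-likelihood test of gene sums (all bins of a gene added up) called 5 of the 5 genes higher in wild-type 14–16 h embryos than in 7–8 h controls, where 90.5% of all tested genes were called: futsch 13-fold, shot 5.09-fold, Ank2 4.87-fold, Khc-73 2.36-fold and Ank 1.21-fold. These groups differ in genotype and in read length as well as in age, and the 3 cannot be told apart. Wild-type heads against wild-type 14–16 h embryos gave 3 calls, with 85.1% of genes called: futsch was 10.9-fold and Ank2 2.34-fold higher, and shot was 1.90-fold lower. The Ank2 sum includes bins of the overlapping gene CG44195, and it did not rise evenly. The first bins, E033 to E026, averaged 136 CPM in heads and 200 CPM in embryos. The middle bins, E024 to E013, had 308 and 263 CPM, and the last bins, E003 to E001, had 1049 and 285 CPM. E011, of CG44195 alone, had 9.41 and 0.140 CPM. Ank and Khc-73 changed by 0.03 and −0.10 on the log2 scale and were not called. Heads and whole embryos differ in tissue as well as in age, and these cannot be told apart.

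Ank2 was the member called in most of the comparisons of a mutant with its control (5 of 8), and its change differed by stage. Its annotation (FBgn0261788, dm6, 3L:7655389-7718395, minus strand) has 21 transcripts and 33 bins that sum to 47221 nt. From 5′ to 3′, bins E033 to E026 hold the start of the coding sequence, E025 extends the exon of E026 by 227 nt with 131 nt of 3′ UTR and ends 2 short transcripts, E024 to E013 code for the middle of the protein apart from E019, which extends the exon of E020 and is mostly 3′ UTR, E012 extends the exon of E013 into another 3′ UTR, E010 is the giant coding exon of 27690 nt, and E009, E008 and E003 to E001 lead to the remaining 3′ ends. The files merge Ank2 with CG44195, whose transcript shares bins E003, E007, E008, E009 and E011 with the merged gene. E011 belongs to CG44195 alone. The Ank2 levels given here include these bins unless stated, and counts in the shared bins cannot be assigned to either gene. The annotation also has CG32373 across Ank2 on the opposite strand, with no exon in an Ank2 bin.

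Of the Ank2 bins that hold 3′ UTR, E009, E008 and E002 (2273, 66 and 144 nt of it) are not shown here. The 3′ ends in E025, E019, E012 and E001 are shown. Each is given as the last 30 bases of the bin on the coding strand, with hexamers known as polyadenylation signals in capitals. The 30 genomic bases that follow each end are added, with runs of 4 or more T in capitals, since ELAV is known to bind U-rich RNA.
E025, short end, 3L:7708920-7708949: cgAATAAAtgttgcaactctttttttatgt
E025, downstream of the short end, 3L:7708890-7708919: aTTTTggtattatgaTTTTTTgagaacaat
E019, 3L:7704818-7704847: tgcagtactacccAATAAAtttagttcgac
E019, downstream, 3L:7704788-7704817: aaaaactttatgccaatgaaaatgTTTTaa
E012, 3L:7696511-7696540: ttcggtaaaagAATATAaatctgttaccat
E012, downstream, 3L:7696481-7696510: aaTTTTTgtacaccccttaTTTTcatttga
E001, distal end, 3L:7655389-7655418: tatttgtgttaaaaacatacAAGAAAtatt
E001, downstream, 3L:7655359-7655388: aaaaaaaaaaaaaacattattgtattgtaa
The windows after E025 and E012 each held 15 T, that after E019 held 10 and that after E001 held 8. The canonical AATAAA was within the last 30 bases of 40.1% of 18313 annotated protein-coding transcript ends, read on the transcript's strand, AATATA in 9.4% and AAGAAA in 4.18%. TTTT occurred in 39.5% and TTTTTT in 6.55% of the 30-base windows that follow such ends. A match is a description of the letters and not a mapped site.

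At 7–8 h, Ank2 was 4.18-fold lower in Δelav,fnenFNE than in the control. The libraries had 35.8, 36.5, 35.5 and 59.9 CPM in Δelav,fnenFNE, 128, 131, 83 and 105 CPM in elavmin,fnenFNE, 119, 149, 109 and 162 CPM in elavnFNE, and 180.5, 180.5, 203 and 135 CPM in the control. Every Δelav,fnenFNE library lay below every library of the 3 other groups. The elavmin,fnenFNE libraries were also below all control libraries, by a small gap, and elavnFNE overlapped both. The change in Δelav,fnenFNE was −2.06 on the log2 scale (SE 0.208, edgeR adjusted p = 0.00254), and Ank2 was the 1 member called, where 2.96% of genes were called. With the replicate number as a block it was −2.08 with an edgeR adjusted p = 0.0642. Ank2 did not pass in elavmin,fnenFNE (−0.64, SE 0.168, edgeR adjusted p = 0.0669), where none of the 5 genes was called against 6.4% of all genes, with 2 of 5 under an unadjusted p of 0.05 and 2 called by DESeq2. Without the bins of CG44195 the change in elavmin,fnenFNE was −0.74 and passed (edgeR adjusted p = 0.0347).

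Set directly against Δelav,fnenFNE, Ank2 was 3.20-fold higher in elavnFNE (log2 fold change 1.68, SE 0.222, edgeR adjusted p = 0.00446; 7.15% of genes called) and 2.67-fold higher in elavmin,fnenFNE (1.41, SE 0.228, edgeR adjusted p = 0.0262; 2.52% of genes called). Between elavnFNE and the control, the difference in Ank2 was −0.38 and did not pass (SE 0.157, edgeR adjusted p = 0.184). Leaving out 1 library at a time, the call in elavmin,fnenFNE against Δelav,fnenFNE was lost in 6 of 8 cases.

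The loss of Ank2 counts in Δelav,fnenFNE was not even along the gene. Upstream of the short end (E033 to E026), Δelav,fnenFNE had 13.3, 14.4, 12.6 and 18.5 CPM, against 41.6, 40.1, 45.8 and 32.1 CPM in the control, 2.71-fold lower on average. In the coding bins from E024 to E013, E019 left out, the means were 9.99 CPM in Δelav,fnenFNE and 64.3 CPM in the control, 6.43-fold lower. The short end between them went the other way. Further 3′ the loss was smaller than from E024 to E013. The giant exon E010 averaged 0.839 CPM in Δelav,fnenFNE and 2.93 CPM in the control, 3.49-fold lower. E009 was 2.57-fold lower, E008 to E004 were 3.2-fold lower and E003 to E001 were 4.29-fold lower.

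The short end E025 of Ank2 had 19, 25, 16 and 32 counts in Δelav,fnenFNE, 11, 9, 4 and 5 in elavmin,fnenFNE, 0, 3, 3 and 5 in elavnFNE, and 5, 5, 3 and 6 in the control. All Δelav,fnenFNE libraries were above all others, in spite of the lower total. Its usage, the log2 fold change of a bin relative to its gene, was 4.75 higher in Δelav,fnenFNE than in the control (SE 0.558, adjusted p = 4.29e-11, edgeR's exon usage test). Of the 98 member bins tested in that comparison 6 were called, against 0.634% of all bins. E025 was called in every alternative tried, and against Δelav,fnenFNE its usage differed by −4.81 in elavnFNE (adjusted p = 9.55e-10) and by −3.18 in elavmin,fnenFNE (adjusted p = 0.0001, both edgeR; 0.108% of bins called).

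Per nucleotide, Ank2 E025 held 0.336 ± 0.0484 times the counts of the adjacent coding bin E026 in Δelav,fnenFNE, 0.0631 ± 0.0257 times in elavmin,fnenFNE and 0.0177 ± 0.012 times in elavnFNE, against 0.022 ± 0.0137 times in the control (SD, n = 4 each). E024, the first coding bin after the short end, held 0.211 ± 0.0357 times the counts of E026 in Δelav,fnenFNE, 0.544 ± 0.0579 times in elavmin,fnenFNE and 0.669 ± 0.139 times in elavnFNE, against 0.635 ± 0.0193 times in the control. E024 had 2.11, 2.28, 1.79 and 3.33 CPM in Δelav,fnenFNE, against 20.2, 20.4, 22.1 and 15.1 CPM in the control. Its usage changed by −0.97 (SE 0.194, edgeR adjusted p = 0.000588), a call lost without Δelav,fnenFNE replicate 3 (edgeR adjusted p = 0.012). The next coding bins averaged 0.935 CPM (E022), 0.933 CPM (E021) and 0.469 CPM (E020) in Δelav,fnenFNE, against 7.64, 7.64 and 5.07 CPM in the control, and did not pass the usage test (edgeR adjusted p = 0.058, 0.0584 and 0.0222).

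Ank2 E019, which ends 2 further transcripts in a 3′ UTR, had 1.11, 0.771, 1.2 and 1.6 CPM in Δelav,fnenFNE, against 9.12, 10.9, 11.2 and 8.43 CPM in the control. Its usage changed by −1.03 (SE 0.249, edgeR adjusted p = 0.00998), a call that held without Δelav,fnenFNE replicate 4 but not without any other library. Of 9 neuron markers, 6 were under 1 CPM in every Δelav,fnenFNE library at 7–8 h, against 3 in the control, and their sums were 231 ± 14.3 CPM in Δelav,fnenFNE and 258 ± 29.6 CPM in the control (SD, n = 4 each). Of the 6 neuron markers that could be tested, 2 were called lower in Δelav,fnenFNE than in the control, with a median log2 fold change of −0.65, and against Δelav,fnenFNE 3 of 6 were called higher in elavnFNE, with a median of 0.95, and 1 of 6 in elavmin,fnenFNE, with a median of 1.06. Their part in the Ank2 result was not tested.

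**Figure D2:**
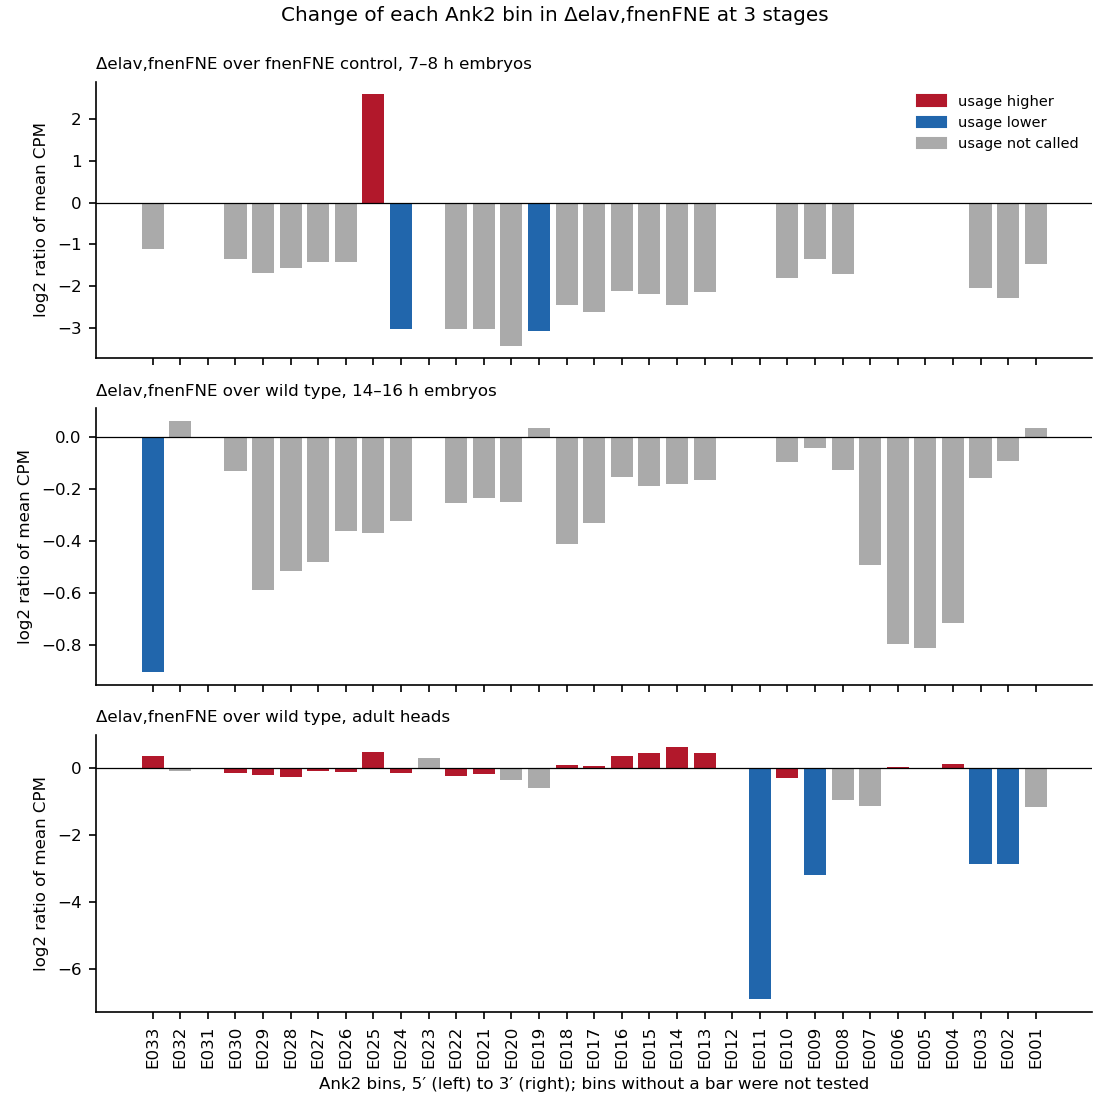
Log2 ratio of the mean CPM of each Ank2 bin, Δelav,fnenFNE over its control, from 5′ to 3′ at 3 stages, coloured by the call of the usage test (adjusted p under 0.01). At 7–8 h E025 stands up alone between falling bins, at 14–16 h every tested bin lies within 1 of 0, and in heads the bins called lower are E011, E009, E003 and E002, while the coding bins before E012 lie within 1 of 0.

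**Figure D3:**
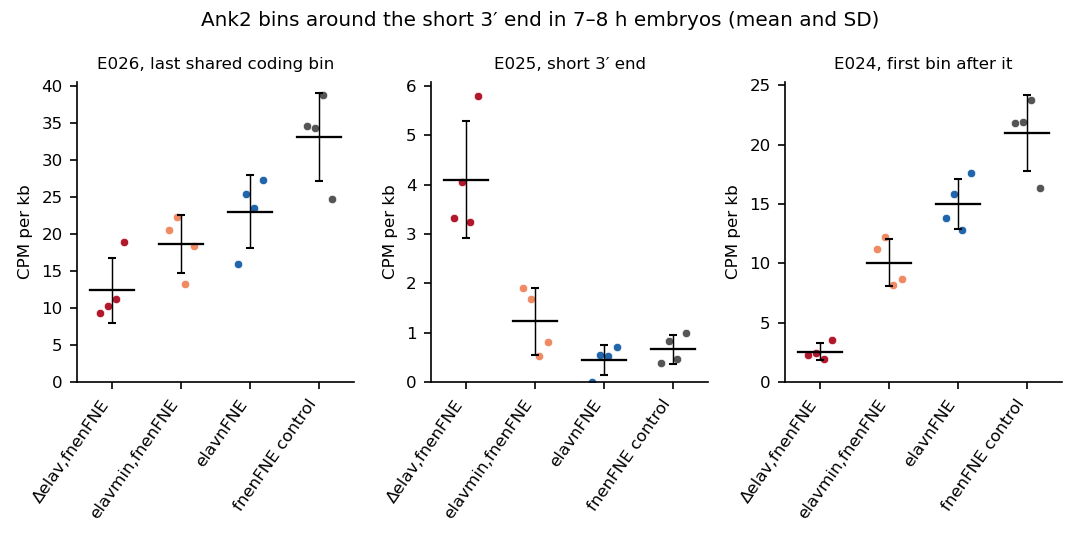
Level in CPM per kb of the coding bin E026, the short end E025 and the next coding bin E024 of Ank2 in 7–8 h embryos, per library with mean and SD. Δelav,fnenFNE is lowest in E026 and E024 and highest in E025, where its libraries had 16 to 32 counts against 3 to 6 in the control.

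At 14–16 h, Ank2 was lower in all 3 mutants, by far less than at 7–8 h in Δelav,fnenFNE. Its libraries had 609, 750, 621 and 652 CPM in Δelav, 722, 703, 673 and 712 CPM in elavmin, and 757, 771, 631 and 683 CPM in Δelav,fnenFNE, against 843, 890, 811 and 820 CPM in wild type. No mutant library reached the lowest wild-type value. In Δelav the change was −0.36 (SE 0.0636, edgeR adjusted p = 0.00154), and Ank2 was the 1 gene of 5 called, where 22.7% of genes were called. In elavmin it was −0.25 (SE 0.038, edgeR adjusted p = 0.000463), and 3 of 5 genes were called, where 29.7% of genes were. In Δelav,fnenFNE it was −0.25 (SE 0.0616, edgeR adjusted p = 0.0113) and 2 of 5 were called, where 25.6% of genes were, but without the pair of libraries shifted towards the 3′ end it was −0.15 and did not pass (edgeR adjusted p = 0.0576). Of the 9 neuron markers, 4 were called lower in Δelav, 5 in elavmin and 6 in Δelav,fnenFNE. Their part in the result was not tested.

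At this stage the short end of Ank2 passed the usage test in no mutant, though its ratio in Δelav lay apart from wild type. Per nucleotide, E025 held 0.183, 0.17, 0.201 and 0.178 times the counts of E026 in Δelav, 0.155, 0.177, 0.162 and 0.176 times in elavmin, and 0.148, 0.107, 0.152 and 0.169 times in Δelav,fnenFNE, against 0.145, 0.16, 0.122 and 0.145 times in wild type. The next coding bin, E024, held 0.319, 0.324, 0.284 and 0.342 times the counts of E026 in Δelav, against 0.344, 0.38, 0.409 and 0.372 times in wild type. Δelav did not overlap wild type in either ratio, by a small gap, while the other mutants overlapped it in E025. The usage of Ank2 in Δelav changed by 0.43 for E025 (adjusted p = 0.0676) and by −0.17 for E024 (adjusted p = 0.857, both edgeR). The change of E025 usage in Δelav,fnenFNE at 14–16 h minus that at 7–8 h was −4.89 (edgeR interaction, adjusted p = 4.02e-18; 0.298% of bins called), and the same difference for the Ank2 level was 1.81 (SE 0.223, edgeR adjusted p = 4.88e-07; 12.9% of genes called). The controls of these stages differ in the fne allele and in read length, which cannot be told apart from age.

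Set against Δelav at this stage, none of the 5 genes was called in elavmin (16.3% of genes called) or in Δelav,fnenFNE (4.79% called), with 1 under an unadjusted p of 0.05 in each.

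A pair of coding exons near the 3′ end of Ank2 was lower in usage in Δelav, the abutting bins E004 to E006, which are parts of 1 exon, and E007. Both exons, and the region from E024 to E001, are in the study's published ELAV target table, so they were not first found here. E004, of 273 nt, had 2.7, 2.3, 2.47 and 2.27 CPM in Δelav, 4.16, 3.88, 2.62 and 3.77 CPM in elavmin, and 3.69, 4.59, 3.09 and 3.73 CPM in Δelav,fnenFNE, against 6.61, 6.48, 6.06 and 5.63 CPM in wild type. Every mutant library was below wild type, and every Δelav library but 1 was below every library of elavmin. In Δelav, usage changed by −0.99 for E004 (adjusted p = 2.61e-08), by −0.97 for E006 of 42 nt (adjusted p = 0.000423), by −0.87 for E005 of 3 nt (adjusted p = 0.00529) and by −0.64 for E007 of 420 nt (adjusted p = 3.66e-05, all edgeR). These were 4 of the 7 member bins called in Δelav, of 121 tested (bins of 1 exon are not separate events), where 1.51% of all bins were called.

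In elavmin, the usage of Ank2 E004 changed by −0.52 (adjusted p = 0.00331) and that of E007 by −0.42 (adjusted p = 0.00793, both edgeR), among 3 of 119 member bins called where 1.39% of all bins were, but either call was lost when most of the single libraries were left out. In Δelav,fnenFNE neither exon had a called bin. The 1 member bin called there, of 119 tested and with 0.705% of all bins called, was the first exon E033 of Ank2. It had 22.2, 23.4, 20 and 20.7 CPM in Δelav,fnenFNE, against 43.2, 39.7, 37.6 and 41.3 CPM in wild type, and its usage fell by 0.66 (SE 0.106, edgeR adjusted p = 1.75e-06). E033 was also low in Δelav (23.2, 29.2, 23.6 and 24.1 CPM) and elavmin (28.5, 28.0, 29.4 and 29.1 CPM), without a call of usage. One bin outside the naming rule, E030 with part of the 5′ UTR, was named after its values were seen: it rose in usage by 0.37 in Δelav (edgeR adjusted p = 0.00988).

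In heads, the Ank2 level was the same within error in elavmin and wild type, and lower in Δelav,fnenFNE. The libraries had 1814, 2411 and 2082 CPM in elavmin and 967, 706 and 869 CPM in Δelav,fnenFNE, against 1633, 2005 and 2466 CPM in wild type. Δelav,fnenFNE lay below both other groups without overlap. Ank2 was 2.49-fold lower in Δelav,fnenFNE than in wild type (log2 fold change −1.31, SE 0.161, edgeR adjusted p = 0.00057), the 1 gene called of 5 where 28.3% of genes were, and 2.58-fold lower than in elavmin (−1.37, SE 0.138, edgeR adjusted p = 0.00026), where 2 of 5 were called against 11.3% of genes. Without the bins of CG44195 the change against wild type was −0.76 (edgeR adjusted p = 0.00482), which is well under the value with them. In elavmin against wild type, Ank2 differed by 0.06 (edgeR adjusted p = 0.807), and no member was called against 20.2% of genes, with 1 of 5 under an unadjusted p of 0.05 and 1 called by DESeq2.

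The lower level of the merged Ank2 gene in Δelav,fnenFNE heads lay mostly in its last bins. In E003 and E009, which CG44195 shares, less Ank2 RNA and less CG44195 RNA cannot be told apart. E003 to E001 together averaged 171 CPM in Δelav,fnenFNE, against 1049 CPM in wild type, 6.12-fold lower, while E033 to E026 averaged 124 CPM in Δelav,fnenFNE and 136 CPM in wild type, and the coding bins from E024 to E013, E019 left out, averaged 324 CPM in Δelav,fnenFNE and 285 CPM in wild type. E002, which holds 1887 coding nt and lies in no CG44195 transcript, had 442, 534 and 504 CPM in elavmin and 64.6, 56.4 and 60.1 CPM in Δelav,fnenFNE, against 357, 433 and 536 CPM in wild type. E009, an exon with 2273 nt of 3′ UTR that the annotation shares with CG44195, had 208, 323 and 260 CPM in elavmin and 29.2, 27 and 28.2 CPM in Δelav,fnenFNE, against 181, 231 and 356 CPM in wild type. In both bins, Δelav,fnenFNE was far below the other groups, which overlapped.

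E011 of the merged Ank2 gene, the exon of CG44195 alone, had 218, 333 and 249 counts in elavmin and 2, 1 and 3 counts in Δelav,fnenFNE, against 144, 173 and 298 counts in wild type. Scaled to library size this is 128-fold lower in Δelav,fnenFNE than in wild type, with an exact 95% interval of 58.6 to 351 that covers counting error only. Usage in Δelav,fnenFNE against wild type changed by −5.63 for E011 (adjusted p = 6.88e-19), by −1.92 for E009 (adjusted p = 6.05e-11), by −1.61 for E002 (adjusted p = 2.81e-08) and by −1.58 for E003 (adjusted p = 3.88e-08, all edgeR). In elavmin, none of the 121 member bins tested was called, against 0.919% of all bins, with 15 under an unadjusted p of 0.05 and 1, Ank2 E004, called by DESeq2.

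Of the 25 member bins called in Δelav,fnenFNE heads, of 121 tested and against 0.995% of all bins, 24 were in Ank2, 4 lower and 20 higher (over all bins, 0.552% were called lower and 0.443% higher). Since usage is relative to the gene, a bin whose level held while the last bins fell is higher in usage. E015, a coding bin of 2436 nt, had 65.0, 95.8 and 72.4 CPM in elavmin and 155, 100 and 138 CPM in Δelav,fnenFNE, against 81.9, 100 and 103 CPM in wild type, without overlap with elavmin and with overlap with wild type, and its usage against wild type was higher by 1.72 (SE 0.229, edgeR adjusted p = 3.67e-09). E014 was higher by 1.89 (edgeR adjusted p = 4.87e-10) and E025 by 1.75 (edgeR adjusted p = 0.000996). The level of E025 was itself higher, with 1.94, 1.76 and 2.28 CPM in Δelav,fnenFNE, against 1.27, 1.64 and 1.34 CPM in wild type. These did not overlap, and elavmin had 1.66, 3.20 and 2.83 CPM. With E002 over E015, counts per nucleotide stood at 7.72 in elavmin and 0.565 in Δelav,fnenFNE, against 5.53 in wild type. The count of called bins fell to 11 without wild-type replicate 2, to 12 without wild-type replicate 3 and to 15 without Δelav,fnenFNE replicate 3, and it was 27 without the 3′-shifted Δelav,fnenFNE replicate 2. E002, E003, E009 and E011 kept their calls without that library.

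The giant exon E010 had 120, 166 and 128 CPM in elavmin and 124, 88.1 and 107 CPM in Δelav,fnenFNE, against 105, 140 and 146 CPM in wild-type heads, so its level overlapped between all groups. It took 6.55% ± 0.373 of Ank2 counts in elavmin and 12.5% ± 0.229 in Δelav,fnenFNE, against 6.45% ± 0.533 in wild type (SD, n = 3 each), and its usage was higher by 0.97 in Δelav,fnenFNE than in wild type (edgeR adjusted p = 0.0038), a call lost without each of 5 of the 6 libraries and with the replicate block. The change in Δelav,fnenFNE differed between heads and 14–16 h embryos for 24 member bins (edgeR interaction; 0.667% of bins called) and for the Ank2 level (−1.0, SE 0.236, edgeR adjusted p = 0.00178; 22.1% of genes called). The 4 photoreceptor markers were called lower in Δelav,fnenFNE heads with a median of −7.28 on the log2 scale, and 3 of 4 were called lower in elavmin heads. The 6 muscle markers were called higher in Δelav,fnenFNE heads, with 11470 to 12200 CPM in sum, against 6955 to 8775 CPM in wild type. Their part in the result was not tested.

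The intron ends before the bins that moved or held are shown on the coding strand as 25 intron and 5 exon bases, with the AG of the 3′ splice site in capitals.
E009, 3L:7665978-7666007: tttttaacttattctccacaaatAGcaaac
E010, 3L:7693851-7693880: gccatccccggaatgcctcaaacAGagcac
E024, 3L:7708812-7708841: tgtgaatttttgtaactttctatAGgtggc
Over Ank2, Ank and futsch, 43 of 49 bins that follow an intron were preceded by AG in the dm6 sequence used. Shot and Khc-73 were not part of this check.

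**Figure D4:**
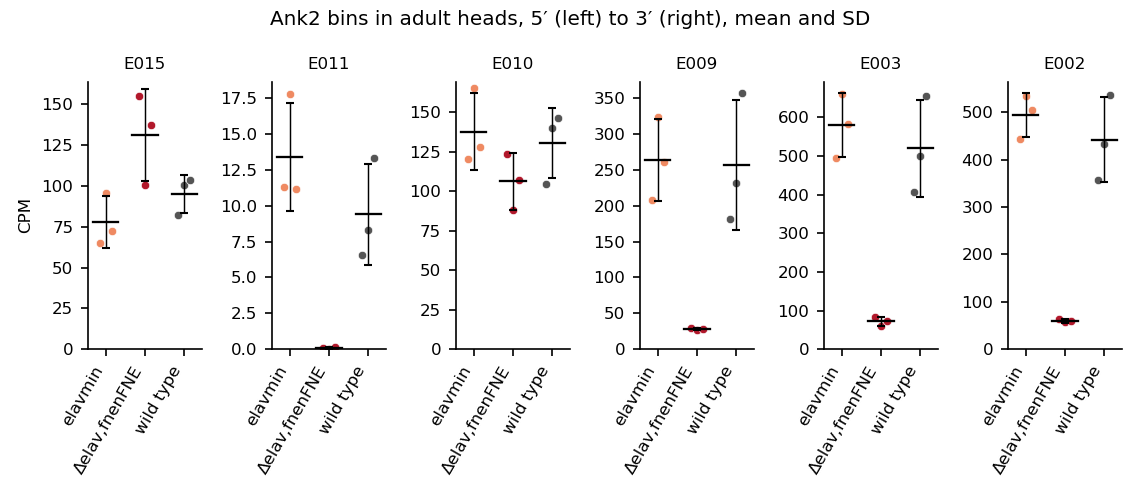
CPM of 6 Ank2 bins in adult heads, per library with mean and SD, from the middle coding bin E015 on the left to the late coding bin E002 on the right. Δelav,fnenFNE overlaps wild type in E015 and both other groups in E010, and lies far below both in E011, E009, E003 and E002, with 56.4 to 64.6 CPM in E002 against 357 to 536 CPM in wild type.

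Khc-73 changed in its 3′ UTR and hardly in its level. The paper lists Khc-73 among its early-onset 3′ UTR targets of ELAV. That list was drawn from these same 7–8 h libraries, so the call in Δelav,fnenFNE at that age is not independent of it. E001 (FBgn0019968, dm6, 2R:15515778-15517706, minus strand) is the distal 3′ UTR of 1929 nt, present in 1 of 5 annotated transcripts. At 7–8 h it held 0.282, 0.383, 0.371 and 0.544% of Khc-73 counts in Δelav,fnenFNE, 0.347, 0.397, 0.464 and 0.376% in elavmin,fnenFNE and 0.867, 0.85, 0.605 and 0.711% in elavnFNE, against 1.14, 1.58, 2.34 and 1.65% in the control. Each mutant lay below the control without overlap, and elavnFNE lay above both other mutants. Usage changed by −2.06 in Δelav,fnenFNE (SE 0.187, adjusted p = 1.78e-12), by −2.04 in elavmin,fnenFNE (SE 0.187, adjusted p = 1.76e-12) and by −1.12 in elavnFNE (SE 0.164, adjusted p = 9.44e-05, all edgeR). It was the 1 member bin called of 97 in elavmin,fnenFNE, where 0.153% of bins were called, and the 1 of 97 in elavnFNE, where 0.313% were. Without control replicate 3, elavnFNE gave −0.91 and the call was lost (edgeR adjusted p = 0.025).

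At 14–16 h the share of Khc-73 E001 was 3.21, 3.36, 3.59 and 3.21% in Δelav, 4.6, 5.14, 4.72 and 4.92% in elavmin, and 7.09, 5.98, 8.51 and 8.84% in Δelav,fnenFNE, against 8.23, 7.66, 7.68 and 7.81% in wild type. Δelav was lowest and elavmin lay between it and wild type, while Δelav,fnenFNE spanned the wild-type values. Usage changed by −1.23 in Δelav (SE 0.0778, adjusted p = 8.85e-30) and by −0.69 in elavmin (SE 0.0636, adjusted p = 3.37e-12, both edgeR). Against Δelav it was higher by 0.54 in elavmin (adjusted p = 2.48e-05) and by 1.18 in Δelav,fnenFNE (adjusted p = 3.97e-18, both edgeR), the 1 member bin called in each, where 0.361% and 0.604% of all bins were called. The highest Δelav,fnenFNE shares were in the pair of 3′-shifted replicates 3 and 4. The change of E001 in Δelav,fnenFNE was less negative at 14–16 h than at 7–8 h by 1.98 (SE 0.221, edgeR adjusted p = 7.28e-14).

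In heads, E001 took 12.0, 9.84 and 10.9% of Khc-73 counts in elavmin and 13.4, 22.8 and 13.9% in Δelav,fnenFNE, against 14.3, 15.6 and 12.3% in wild type. The value of 22.8% belongs to the 3′-shifted replicate, and no change of E001 usage was called in either mutant. The usage of Khc-73 E001 was higher by 2.27 in wild-type 14–16 h embryos against 7–8 h controls (edgeR adjusted p = 4.91e-43), with the differences in genotype and read length given above, and by 0.84 in wild-type heads against whole 14–16 h embryos (edgeR adjusted p = 8.02e-16).

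**Figure D5:**
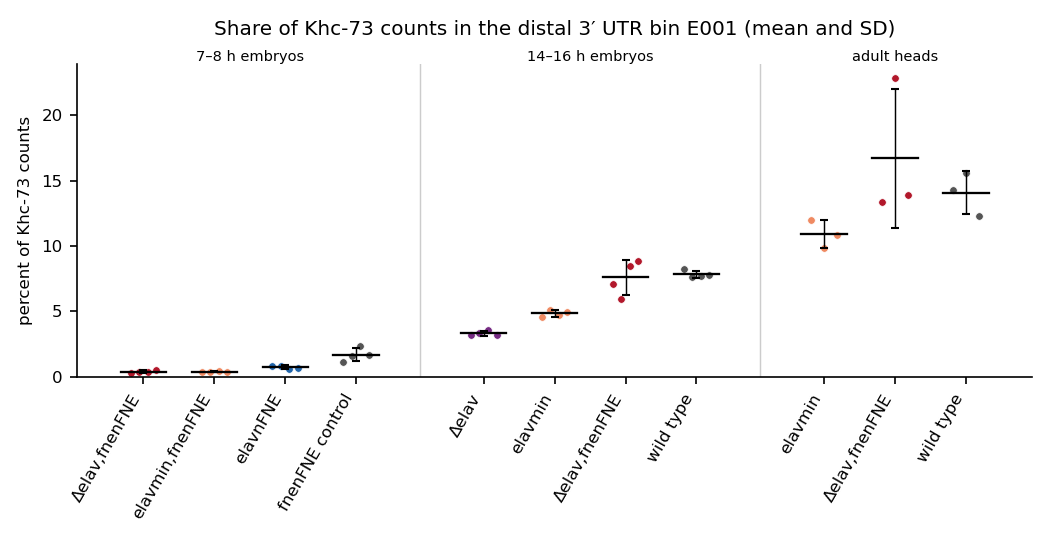
Percent of Khc-73 counts in the distal 3′ UTR bin E001 in every library, by group and stage, with mean and SD. Shares are under 3 at 7–8 h, lowest in Δelav,fnenFNE and elavmin,fnenFNE, and at 14–16 h Δelav (3.21 to 3.59) and elavmin (4.6 to 5.14) lie below wild type (7.66 to 8.23).

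Coding bins of Khc-73 were called as well. E006, a coding exon of 63 nt in 1 transcript, had 1.95, 2.8, 2.07 and 1.77 CPM in Δelav, against 3.45, 4.2, 3.91 and 3.43 CPM in wild type at 14–16 h, and its usage fell by 0.79 (SE 0.131, edgeR adjusted p = 3.58e-05). E010, which extends the exon of E009 by 24 nt, had 29, 23, 20 and 24 counts in Δelav,fnenFNE and 9, 8, 11 and 11 counts in elavnFNE, against 9, 8, 17 and 7 counts in the control at 7–8 h. Its usage was higher in Δelav,fnenFNE than in the control by 1.56 (SE 0.254, edgeR adjusted p = 0.00167), a call lost without control replicate 1 or 2 or Δelav,fnenFNE replicate 1, and differed by −1.49 in elavnFNE against Δelav,fnenFNE (edgeR adjusted p = 0.00334), where 2 member bins and 0.294% of all bins were called. The Khc-73 level fell by 0.11 in elavmin at 14–16 h (SE 0.0318, edgeR adjusted p = 0.0255), a call lost without each of 4 single libraries.

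Shot is second to Ank2 in summed bin length (FBgn0013733, dm6, 2R:13864237-13942110, minus strand, 22 transcripts). The shot level was not called in any mutant against its control. It differed by 0.12 in elavmin at 14–16 h (edgeR adjusted p = 0.114) and by −0.23 in elavmin heads (edgeR adjusted p = 0.245), so small changes are not excluded. Its exon E007 of 179 nt held 0.794, 0.667, 0.713 and 0.767% of shot counts in Δelav,fnenFNE, against 1.03, 1.15, 1.11 and 1.23% in the control at 7–8 h, and its usage fell by 0.61 (SE 0.145, edgeR adjusted p = 0.00613). The groups did not overlap, but the call was lost without any single library. Between stages, small exons of shot were called. E015, of 60 nt, had 35.6, 28.4, 31.4 and 34.1 CPM in wild type at 14–16 h, against 0.637, 0.604, 0.525 and 0.835 CPM in the 7–8 h control, with usage higher by 3.3 (edgeR adjusted p = 1.21e-34). E040, of 18 nt, had 15, 22 and 30 counts in wild-type heads, against 0, 10, 2 and 1 counts in wild-type 14–16 h embryos, with usage higher by 4.16 (edgeR adjusted p = 8.24e-08). Over all members, 42 of 118 bins tested were called between the embryo stages, against 16.9% of all bins, and 49 of 123 between heads and 14–16 h embryos, against 14.5%, of which 29 were in Ank2.

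The bins of at least 3000 nt differed from one another. Ank2 E010 held 1.66% ± 0.298 of Ank2 counts in the 7–8 h control, 2.77% ± 0.431 in wild type at 14–16 h and 6.45% ± 0.533 in wild-type heads, with a count density per nucleotide of 0.0119, 0.0201 and 0.0487 times that of the rest of the gene. Its usage was higher by 0.68 at 14–16 h than at 7–8 h (edgeR adjusted p = 5.65e-05) and by 1.20 in heads than at 14–16 h (edgeR adjusted p = 1.51e-18). The exon E009 of futsch, 13820 nt long, held 47.5% ± 5.62, 54.4% ± 3.3 and 52.5% ± 2.27 of futsch counts at the same stages, with 0.659, 0.856 and 0.791 times the density of the rest, and no call. The exon E022 of shot, 10035 nt long and in 1 of 22 transcripts, held 13.9% ± 1.12, 8.69% ± 2.34 and 14.8% ± 1.92 (SD, n = 4, 4 and 3). Its usage changed by −0.69 at 14–16 h against 7–8 h (edgeR adjusted p = 1.02e-06) and was higher by 0.78 in heads than at 14–16 h (edgeR adjusted p = 9.54e-06). The other giant bin of shot, E020, 7478 nt long and in all 22 transcripts, held 31.6% ± 0.499, 31.3% ± 0.324 and 27.5% ± 0.671 of shot counts at these stages, with no call. The fifth, Ank2 E003 of 3098 nt, was higher in usage by 0.54 in wild-type heads than at 14–16 h (edgeR adjusted p = 2.86e-05). In a mutant against its control, Ank2 E010 and E003 were called in Δelav,fnenFNE heads, as given above, and the giant bins of futsch and shot in none.

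Ank, the ubiquitous ankyrin (FBgn0011747, dm6, 4:115074-129849, minus strand), stayed within a narrow range of levels. Its mean was 398 ± 11.9 CPM in the 7–8 h control and 501 ± 25.6 CPM in wild-type heads. It was called in elavnFNE at 7–8 h (0.17, SE 0.0499, edgeR adjusted p = 0.0466), the 1 of 5 genes where 9.71% of genes were called, and in elavmin at 14–16 h (−0.10, SE 0.0355, edgeR adjusted p = 0.0486). Both calls were lost without most of the single libraries. Against elavmin heads (422 ± 25.6 CPM), Ank was higher by 0.39 in Δelav,fnenFNE heads (573 ± 45.7 CPM; SD, n = 3 each; 1.31-fold, SE 0.0936, edgeR adjusted p = 0.0286), a call lost without each of 4 single libraries. In heads, the 3′ bin E002 of Ank had 7.47, 5.82 and 7.05 CPM in elavmin and 27.2, 27.9 and 27.3 CPM in Δelav,fnenFNE, against 11.4, 12.5 and 9.85 CPM in wild type. Δelav,fnenFNE was above and elavmin below every wild-type library. Usage was higher by 1.09 in Δelav,fnenFNE than in wild type (SE 0.211, edgeR adjusted p = 0.000401), a call lost without any 1 of the wild-type libraries (edgeR adjusted p = 0.025 to 0.1), and by 1.57 than in elavmin (edgeR adjusted p = 1.8e-06), where 27 of 121 member bins and 0.646% of all bins were called.

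Futsch (FBgn0259108, dm6, X:1409069-1453686, plus strand) had 103, 121, 87.6 and 84.6 CPM in Δelav,fnenFNE, against 127, 141, 122 and 114.6 CPM in wild type at 14–16 h, a change of −0.36 (SE 0.109, edgeR adjusted p = 0.0385). The groups overlapped in 1 library, and without the pair of 3′-shifted libraries the change was −0.18 and not called (edgeR adjusted p = 0.208). In heads it had 976, 1383 and 1123 CPM in elavmin and 1365, 764 and 1232 CPM in Δelav,fnenFNE, against 1246, 1421 and 1610 CPM in wild type, with no call. The change in Δelav,fnenFNE at 14–16 h minus that at 7–8 h was −0.69 (SE 0.225, edgeR adjusted p = 0.0385). The files merge futsch with the taste receptor gene Gr2a. Of the bins that overlap Gr2a exons, E015 had the most counts at 7–8 h. All 1024 nt of E015 are also annotated as 3′ UTR of futsch, so its counts cannot be assigned to either gene. E015 changed in usage by −4.82 in wild-type 14–16 h embryos against 7–8 h controls (edgeR adjusted p = 1.97e-15). It had 38 counts over the wild-type 14–16 h libraries and 86 over the 7–8 h controls.

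Other genes of the cytoskeleton came from lists of tubulins, microtubule-associated proteins, actin regulators, transport motors and spectrin partners (38 genes, 35 or 36 tested). In Δelav at 14–16 h, 2 were called higher and 4 lower, 16.7% of the list against 22.7% of all genes, with a median log2 fold change of 0.02 against 0.0088 over all genes. Map205, a microtubule-associated protein, rose by 0.40 (adjusted p = 0.00029) and tau by 0.21 (adjusted p = 0.00224), and chic, the fly profilin, fell by 0.48 (adjusted p = 0.000338, all edgeR). In elavmin at 14–16 h, 5 were higher and 7 lower (33.3% against 29.7% of all genes), and in Δelav,fnenFNE at 14–16 h, 4 were higher and 5 lower (25% against 25.6%), among them the kinesin-3 motor unc-104 (−0.37, adjusted p = 0.000321) and the dynein heavy chain Dhc64C (−0.42, adjusted p = 0.0039, both edgeR). In heads, 4 were higher and 4 lower in elavmin (22.2% against 20.2%), and 4 higher and 3 lower in Δelav,fnenFNE (19.4% against 28.3%), where the spectrin kst was lowest at −1.0 (edgeR adjusted p = 0.000475). At 7–8 h, at most 1 of 35 was called in any mutant, where between 2.96% and 9.71% of all genes were. The shares of the list were near or below those of all genes, so they are no result about the list.

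Over the 11 groups, the genes whose mean level was most like each member by Pearson's r of log2 CPM, among 9314 genes, were Liprin-gamma (0.981), CG13409 (0.973) and faf (0.972) for Ank2, and CG33143 (0.995), ine (0.993) and Ac76E (0.993) for Khc-73. For futsch they were asRNA:CR45271, CG5758 and Nepl16 (0.999 each), for shot asRNA:CR45192 (0.998), Vajk2 (0.997) and ps (0.997), and for Ank the merged eIF4G2 and CG33111 (0.844), CG18858 (0.826) and CG14322 (0.824). The groups fall into 3 stages, and the values are a description.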

How the data were processed

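Deposited values were raw counts per exon bin, which the authors made with snakePipes 2.5.1 and HTSeq on dm6 with the Ensembl 96 annotation from a stranded kit. Transcripts, coding parts and UTRs were read from the Ensembl 115 annotation on the same build. The strand setting of the counting is not given in the sources used here, and a read that spans bins may count in each. The authors' own dispersions, fold changes and p-values in these tables, and their deposited lists of 3′ UTRs, were not used. Lines that continued an entry (78 per table) were dropped, and 19 repeated columns were identical. Gene levels were counts summed over bins, in CPM by TMM over 41 libraries. Each pair of groups was tested with edgeR 4.0.16 (R 4.3.3): quasi-likelihood test of genes (adjusted p under 0.05) and exon usage test of bins (adjusted p under 0.01, log2), after TMM and filterByExpr, with Benjamini-Hochberg adjustment over all features. The study's DEXSeq was not used here. SE is the absolute log2 fold change over the square root of F. Alternatives were DESeq2 1.42.0 and its size factors, no filter on low counts, a replicate block, 1 fit per stage, and leaving out each library. Descriptions used Python 3.11.15, pandas 2.3.3, NumPy 2.4.6 and matplotlib 3.10.9. The gene and bin usage tests were tested on simulated data for 3 of the comparisons of a mutant with its control, and no other comparison was. The members and lists were chosen with earlier results of these data known.

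Named bins were those overlapping regions of the study's published ELAV target table, those of at least 3000 nt, and per comparison and member up to 3 called bins with the largest change and a mean count of at least 10, with called bins of 9 to 60 nt. List genes were up to 3 per direction and comparison with the largest change, and alike genes the 3 most correlated among those with a mean of at least 5 CPM (pseudocount 0.5). Nothing says whether pools came from separate crosses, so p-values measure the spread between pools.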

Additional observations from a re-analysis of the deposited data

Results flagged for a closer look

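For 4 values, 1 library of a group of 4 stood far from the others, which is 3.85% of the groups tested, where chance flags about 1 in 20 groups, or 5%. Ank2 was at 59.9 CPM in Δelav,fnenFNE replicate 4 at 7–8 h, above the 3 other libraries. Ank was at 584 CPM in Δelav replicate 2 at 14–16 h. In Δelav,fnenFNE at 7–8 h, Ank2 E004 was at 0.0822 CPM in replicate 4 and Khc-73 E006 at 0.318 CPM in replicate 1, both a few counts.

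The change in Δelav,fnenFNE differed between stages by a test of the difference itself, an edgeR interaction. Adjusted p was under 0.05 for genes and under 0.01 for bins. Heads and whole embryos differ in tissue as well as in age, which cannot be told apart. In heads minus 14–16 h embryos, on the log2 scale, the Ank2 level differed by −1.0. Lower usage in heads was found for Ank2 E002 (−1.76), E003 (−1.67), E009 (−2.13) and E011 (−5.98). Higher usage was found for Ank2 E004 (1.86), E005 (1.83), E006 (1.83), E013 (1.64), E014 (1.82), E015 (1.67), E016 (1.55), E017 (1.40), E018 (1.52), E021 (1.09), E022 (1.05), E024 (1.21), E025 (1.87) and E033 (2.32), and for Ank E002 (0.94). In 14–16 h minus 7–8 h embryos, the Ank2 level differed by 1.81 and that of futsch by −0.69. Usage differed for Ank2 E019 by 1.31, for Ank2 E025 by −4.89, for Ank E015 by −3.03 and for Khc-73 E001 by 1.98.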

How the results depend on the processing

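No called change reversed under any alternative. Leaving out 1 library at a time gave, for called member bins, 4 to 7 in Δelav, 1 to 3 in elavmin and 1 to 2 in Δelav,fnenFNE at 14–16 h; 0 in elavmin and 11 to 27 in Δelav,fnenFNE heads; and 1 in elavmin,fnenFNE, 3 to 7 in Δelav,fnenFNE and 0 to 1 in elavnFNE at 7–8 h. Called member genes were 1, 1 to 3 and 1 to 2 at 14–16 h, 0 to 2 and 1 in heads, and 0 to 1, 1 and 0 to 1 at 7–8 h, in the same orders. DESeq2 called 1 bin in elavmin at 14–16 h against 3, 1 bin in elavmin heads against 0, 3 bins in elavmin,fnenFNE against 1 and 11 bins in Δelav,fnenFNE against 6 at 7–8 h, and 1 gene in elavmin heads against 0, 2 in elavmin,fnenFNE against 0 and 2 in elavnFNE against 1. Fitting all groups of a stage together gave 1 bin and 1 gene in elavmin at 14–16 h and 0 genes in elavnFNE. Without the filter on low counts, 1 gene was called in Δelav,fnenFNE at 14–16 h against 2. DESeq2's size factors changed no count by over 1.5 times. Alternatives chosen after seeing the data gave 0 genes in Δelav,fnenFNE at 14–16 h without the 2 libraries shifted towards the 3′ end, and 1 gene in elavmin,fnenFNE without the bins of CG44195. The cause of these differences was not tested.

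With the replicate number as a block, 1 gene was called in elavmin at 14–16 h, 2 in elavmin heads, and 0 in Δelav,fnenFNE and in elavnFNE at 7–8 h, and 5 bins lost their call. Numbers did not pair the samples in any of 8 comparisons: deviations of same-numbered libraries correlated between −0.39 and 0.43, and 8 of 30 libraries correlated best with their own number. Depth limits exons with few counts, such as Ank2 E025, Ank E015 and shot E040.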
